A study of Caenorhabditis elegans with 8 samples.

Results

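The cyp-34A genes of Caenorhabditis elegans encode cytochrome P450 enzymes, and 6 of them are described here in whole worms exposed to the insect repellent DEET or to its solvent. The 6 genes are cyp-34A2, cyp-34A5, cyp-34A6, cyp-34A8, cyp-34A9 and cyp-34A10, out of 46244 gene identifiers in the deposited tables and 9 with a cyp-34A symbol. They were chosen by name, selected on their counts and TPM in these DEET and DMSO libraries, so every DEET to DMSO value of the 6 genes below is a description and not an independent finding. The groups were 4 samples given DEET and 4 samples given DMSO alone, each a pool of 1000 whole worms that were late L4 larvae when a 24 hour exposure began. Per the labels, DEET was dissolved in DMSO at 0.1 M, without saying whether this was the stock or the final concentration, and the control dose was 0.1% DMSO. All worms in both groups were of the strain that the labels name for the cuticle collagen gene col-121, with no allele given. The labels number the samples of each group 1 to 4 and call that number the batch, so each DEET sample has a DMSO sample of its own pair, and they describe the samples as independent biological repeats.

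Cytochrome P450 enzymes hold a haem group and insert an oxygen atom into their substrate, with electrons passed to them from NADPH by a reductase. Worms have a large set of such genes, many of them in tandem arrays, and the cyp-33, cyp-34 and cyp-35 families are related to the CYP2 enzymes that oxidise drugs and other foreign compounds in mammals. Several worm P450 genes are known to be transcribed more when worms meet a foreign compound, largely in the intestine. What each of the 6 enzymes acts on is not stated here.

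Of the 6 genes, 5 lie side by side on chromosome V in WBcel235 coordinates, within a 17.3 kb cluster of 6 genes that all run on the minus strand. In order of coordinate the cluster holds cyp-34A5 (3955701 to 3957708), cyp-34A6 (3958160 to 3961335), cyp-34A7 (3961681 to 3963815), cyp-34A8 (3964797 to 3967823), cyp-34A9 (3968134 to 3970540) and cyp-34A10 (3970702 to 3972991). Only 161 bp separate cyp-34A9 from cyp-34A10, the shortest gap in the cluster, and the longest is the 981 bp between cyp-34A7 and cyp-34A8. The remaining gene, cyp-34A2 (15288777 to 15291095), sits 11.3 Mb away on the same chromosome, 820 bp from cyp-34A1. No annotated gene overlaps any of the 6 on the same strand, and the small RNA genes that overlap them on the opposite strand had at most 1 count in any library.

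The libraries held 44437681 to 50295321 counts. All 42 markers of 8 tissue lists (intestine, hypodermis, body wall muscle, pharynx, neurons, germline, sperm and adult yolk) had counts in every library. With the pair as a block, edgeR called 0 of these markers between DEET and DMSO (5 at an unadjusted p under 0.05, 0 by DESeq2). Of all 15496 genes tested, edgeR called 13 higher and 0 lower, and 526 had an unadjusted p under 0.05. With so few calls over all genes, 0 called does not show that the markers were unchanged. Libraries of pair 4 stood apart: ribosomal RNA took 12.1% of the DEET 4 counts and 10.9% of the DMSO 4 counts, against 5.99% to 6.45% in the other DEET libraries and 3.91% to 8.32% in the other DMSO libraries. Whole-worm RNA cannot tell fewer cells of a type from less RNA per cell.

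Exposure to DEET went with more transcript of cyp-34A10 and cyp-34A9, the end of the cluster, while the mean log2 ratios of the other 4 genes lay between -0.29 and 0.16. cyp-34A10 was 56.8-fold higher in DEET in the fitted comparison (log2 fold change 5.83) and cyp-34A9 was 3.04-fold higher (1.60). Both were higher in DEET in 4 of 4 pairs, a pattern held by 4.58% of the 15496 genes tested, and 0 of 6 were lower in 4 of 4 pairs, where 5.72% of all genes tested were. In the edgeR quasi-likelihood fit with the pair as a block, cyp-34A10 passed the threshold of 0.05 on the adjusted p and the other 5 genes did not, so 1 of 6 was called higher, where 0.0839% of all genes tested were called higher, and 0 of 6 lower. The call of cyp-34A10 was lost without the block, with a log2 fold change of 5.79, and by limma on log2(TPM + 1), with 2.01. cyp-34A9 was called by DESeq2 with the block, by limma on log2(TPM + 1) and by edgeR without pair 2. Those fits called 0.0752%, 0.0452% and 0.07% of all genes higher.

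**Figure D1:**
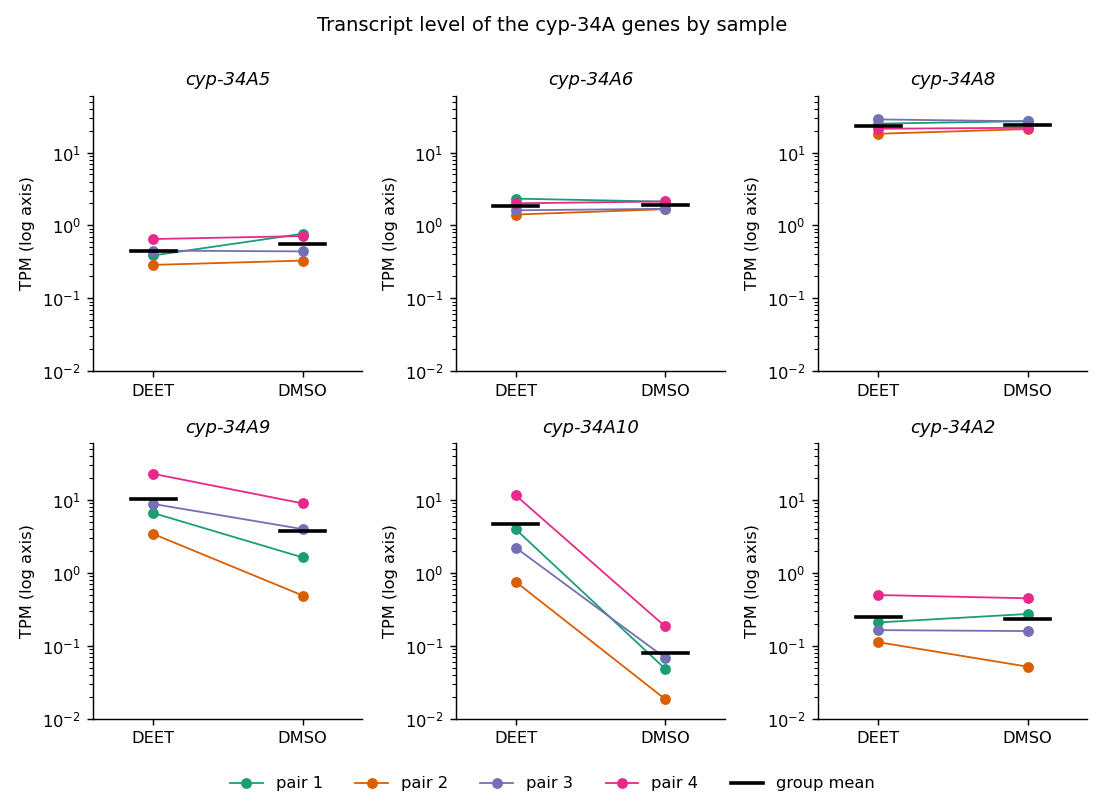
Level of the 6 genes in every sample, in TPM on a log axis, with DEET samples on the left and DMSO samples on the right of each panel. Lines join the samples of a pair and black bars are means of 4 samples. cyp-34A10 lies between 0.755 and 11.6 TPM in DEET and between 0.0185 and 0.184 TPM in DMSO, with no overlap.

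cyp-34A10 had 230, 44, 126 and 773 counts in DEET pairs 1 to 4, against 3, 1, 4 and 12 counts in DMSO pairs 1 to 4. In TPM, a level per transcript length, this was 3.97, 0.755, 2.22 and 11.6 in DEET, against 0.0482, 0.0185, 0.0682 and 0.184 in DMSO. The groups did not overlap, which was true with DEET higher for 0.297% of all genes tested (0.187% with DEET lower, 0 of these 6), and the lowest DEET sample, pair 2, stood above the highest DMSO sample, pair 4. The gene entered the test through its DEET libraries, since 4 of 4 DEET libraries and 1 of 4 DMSO libraries reached the filter's 0.208 CPM, so it had to differ in order to be tested.

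Because the DMSO counts of cyp-34A10 were so low, its ratio within a pair is known only roughly. The ratio of counts scaled to library size, DEET over DMSO, was 82.7 in pair 1 (95% exact binomial interval 27.9 to 404.0). It was 40.6 in pair 2 (6.92 to 1640.0), 32.2 in pair 3 (12.3 to 120.0) and 63.3 in pair 4 (36.1 to 123.0). All 4 intervals overlap, and a difference in ratio between the pairs could not be tested with 1 sample per pair and group. These intervals cover counting error only and not variation between worm pools, and the read pairs carry no molecular identifiers.

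cyp-34A9, the next gene along, was already transcribed in DMSO. Its counts were 387, 202, 506 and 1535 in DEET pairs 1 to 4, against 101, 27, 235 and 590 in DMSO. Its level was 6.63, 3.42, 8.84 and 22.9 TPM in DEET and 1.63, 0.489, 3.99 and 8.99 TPM in DMSO. The groups overlapped, because the DMSO samples of pairs 3 and 4 stood above the DEET sample of pair 2, but within every pair the DEET sample was higher. Its scaled ratio was 4.13 in pair 1 (95% interval 3.31 to 5.2) and 6.91 in pair 2 (4.61 to 10.7), against 2.2 in pair 3 (1.88 to 2.58) and 2.56 in pair 4 (2.32 to 2.82). The intervals of pairs 1 and 2 did not overlap those of pairs 3 and 4. Pairs 3 and 4 were also those with the higher DMSO level of cyp-34A9, a value that the ratio itself contains, and a difference between pairs could not be tested with 1 sample per pair and group.

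**Figure D2:**
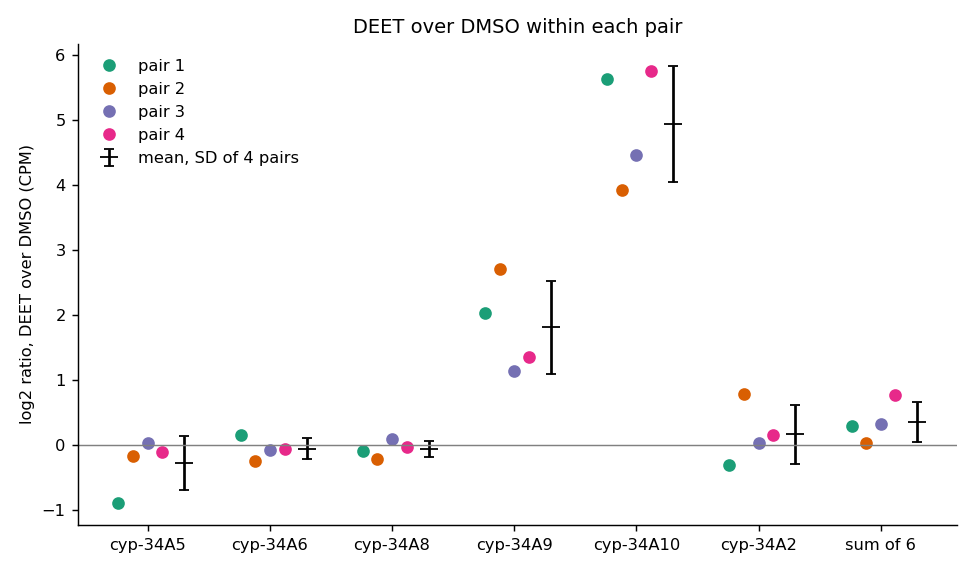
log2 ratio of CPM (prior count 2), DEET over DMSO, for each of the 6 genes and for their summed CPM (no prior count). Coloured points are the 4 pairs, and the black mark and bar are their mean and SD. cyp-34A10 averages 4.94 and cyp-34A9 averages 1.80, while the means of cyp-34A5, cyp-34A6, cyp-34A8 and cyp-34A2 lie between -0.29 and 0.16.

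On the scale of added transcript the order of these neighbours was the reverse of their fold changes. The TPM of cyp-34A9 in DEET exceeded that in DMSO by 5.0, 2.93, 4.85 and 13.94 in pairs 1 to 4, a mean difference of 6.68 ± 4.93 (SD, n = 4 pairs). The difference for cyp-34A10 was 3.92, 0.74, 2.15 and 11.42 TPM, a mean of 4.56 ± 4.76 (SD, n = 4 pairs). It was smaller than that of cyp-34A9 in 4 of 4 pairs, and for both genes pair 4 had the largest difference, then pair 1, pair 3 and pair 2. The TPM of cyp-34A10 over that of cyp-34A9 was 0.221 to 0.598 in DEET libraries, against 0.0171 to 0.0379 in DMSO libraries.

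**Figure D3:**
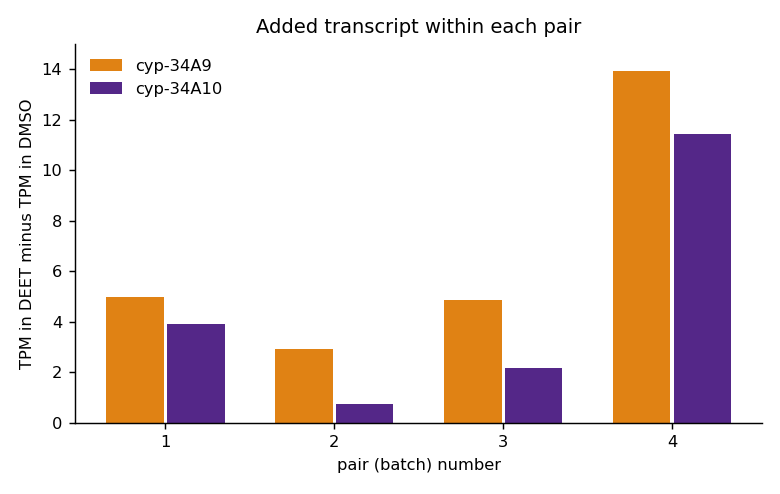
Difference in TPM, DEET minus DMSO, in each of the 4 pairs for cyp-34A9 and cyp-34A10. Every bar is above 0, from 0.74 for cyp-34A10 in pair 2 to 13.94 for cyp-34A9 in pair 4, and the cyp-34A9 bar is the taller in each pair.

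Reads of close paralogs can be shared out by the quantifier, and how alike these neighbours are in sequence was not tested here. With the counts of cyp-34A9 and cyp-34A10 added into 1 gene, a setting chosen after seeing the data, the fitted log2 fold change was 2.06 and the call over all genes was not reached. The summed CPM of this pair of genes had a mean log2 ratio of 2.26 ± 0.72 (SD, n = 4 pairs) and was higher in DEET in 4 of 4 pairs.

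The most abundant gene of the 6, cyp-34A8, lies 310 bp from cyp-34A9 and was not called between DEET and DMSO. It had 24.9, 18.1, 28.5 and 21.2 TPM in DEET pairs 1 to 4, against 27.0, 21.0, 26.8 and 21.9 TPM in DMSO. The DEET sample was the lower in 3 of 4 pairs and the groups overlapped. With 1113 to 1745 counts per library this was also the gene measured with least counting error. Its mean log2 ratio was -0.07 ± 0.12 (SD, n = 4 pairs).

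The remaining cluster genes were weakly transcribed. cyp-34A6 had 128, 78, 87 and 127 counts in DEET pairs 1 to 4, against 124, 86, 94 and 131 in DMSO, or 1.84 ± 0.412 TPM in DEET and 1.90 ± 0.257 TPM in DMSO (SD, n = 4). Its groups overlapped and its mean log2 ratio was -0.06 ± 0.16 (SD, n = 4 pairs). cyp-34A5 had 23, 17, 26 and 44 counts in DEET, against 48, 18, 26 and 47 in DMSO. Its groups overlapped too, and pair 1 carried most of its mean log2 ratio of -0.29 ± 0.41 (SD, n = 4 pairs), with -0.90 in pair 1 and -0.18 to 0.03 in the other pairs. Without pair 1 its fitted log2 fold change was -0.07, against -0.32 with all pairs.

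Outside the cluster, cyp-34A2 had 13, 7, 10 and 35 counts in DEET pairs 1 to 4, against 18, 3, 10 and 31 in DMSO. Within pairs 3 and 4 the DEET and DMSO samples were close, and the groups overlapped. Its mean log2 ratio was 0.16 ± 0.46 (SD, n = 4 pairs). The ratio in pair 2 was 0.78, on 7 counts in DEET and 3 in DMSO, and the other pairs lay between -0.32 and 0.14. Without pair 2 its fitted log2 fold change was -0.0041.

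The other 3 genes with a cyp-34A symbol were at or near the floor of detection and were not tested. cyp-34A7, inside the cluster between cyp-34A6 and cyp-34A8, had 0 to 6 counts per DEET library and 0 to 4 per DMSO library. cyp-34A1, beside cyp-34A2, had 1 to 4 counts per DEET library and 1 to 2 per DMSO library. The annotated pseudogene cyp-34A3 had 0 counts in every DEET library and 0 to 2 in DMSO libraries. The filter therefore fell between cyp-34A2, with 65 counts over the DEET libraries and 62 over the DMSO libraries, and cyp-34A7, with 11 and 8.

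Together the 6 genes had 38.4, 24.1, 41.8 and 58.9 TPM in DEET pairs 1 to 4, against 31.8, 23.6, 33.2 and 34.4 TPM in DMSO. The sum was higher in DEET in 4 of 4 pairs, but in pair 2 by no more than a ratio of 1.02, and in pair 4 by 1.71. On summed CPM the mean log2 ratio was 0.34 ± 0.31 (SD, n = 4 pairs), a ratio of 1.27. Leaving out pair 4 brought it to 0.20. Without cyp-34A8 the mean log2 ratio was 1.36 ± 0.25, and without cyp-34A9 and cyp-34A10 it was -0.07 ± 0.12 (SD, n = 4 pairs).

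The make-up of the sum differed between the groups. cyp-34A8 made up 61.0% ± 17.3 of the summed TPM in DEET libraries and 79.7% ± 11.1 in DMSO libraries (SD, n = 4). cyp-34A10 made up 9.61% ± 7.37 in DEET libraries and 0.243% ± 0.202 in DMSO libraries (SD, n = 4). In the DEET library of pair 4, cyp-34A9 reached 38.9% of the sum and passed cyp-34A8, at 22.9 TPM against 21.2 TPM, which it did in no other library.

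By mean level per transcript length, the order in DEET was cyp-34A8 (23.2 ± 4.5 TPM), cyp-34A9 (10.5 ± 8.61), cyp-34A10 (4.64 ± 4.83), cyp-34A6 (1.84 ± 0.412), cyp-34A5 (0.444 ± 0.153) and cyp-34A2 (0.246 ± 0.172), as mean TPM ± SD of 4 samples. In DMSO it was cyp-34A8 (24.2 ± 3.15), cyp-34A9 (3.77 ± 3.77), cyp-34A6 (1.90 ± 0.257), cyp-34A5 (0.563 ± 0.212), cyp-34A2 (0.233 ± 0.169) and cyp-34A10 (0.0797 ± 0.0725). By these means cyp-34A10 stood above cyp-34A6, cyp-34A5 and cyp-34A2 in DEET and below them in DMSO. It was the lowest of the 6 in every DMSO library. In the DEET library of pair 2, however, it lay at 0.755 TPM, below cyp-34A6 at 1.41 TPM. Neighbours in the DEET order had overlapping ranges except cyp-34A6 and cyp-34A5. In the DMSO order, cyp-34A8 lay clear of cyp-34A9 and cyp-34A6 lay clear of cyp-34A5, and the other neighbours overlapped.

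In the main fit the 6 genes also differed among the batches, as did most genes tested. The joint test of the 3 batch coefficients in the same fit asks whether a gene's level differs among pairs 1 to 4. The treatment is held in the model, and this batch contrast was not used to choose the genes. For cyp-34A10 the test is still not independent of the choice, since that gene was tested through its DEET libraries. It had 44 to 773 counts per DEET library and 1 to 12 per DMSO library. By the batch test 6 of 6 genes passed over all genes tested, where 64.9% of all genes tested passed. The adjusted p was 1.2e-06 for cyp-34A10, 0.00043 for cyp-34A8, 0.00067 for cyp-34A9 and 0.0014 for cyp-34A2, and 0.032 and 0.041 for cyp-34A5 and cyp-34A6. Without pair 4, cyp-34A8 and cyp-34A10 passed and the other 4 did not, where 19.5% of all genes passed. That fit also has fewer libraries, so how much of the batch difference lay in pair 4 was not tested. DESeq2 passed cyp-34A8, cyp-34A9 and cyp-34A10, where 47.7% of all genes passed, and limma on log2(TPM + 1) passed cyp-34A2, cyp-34A8 and cyp-34A9, where 62.0% passed.

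**Figure D4:**
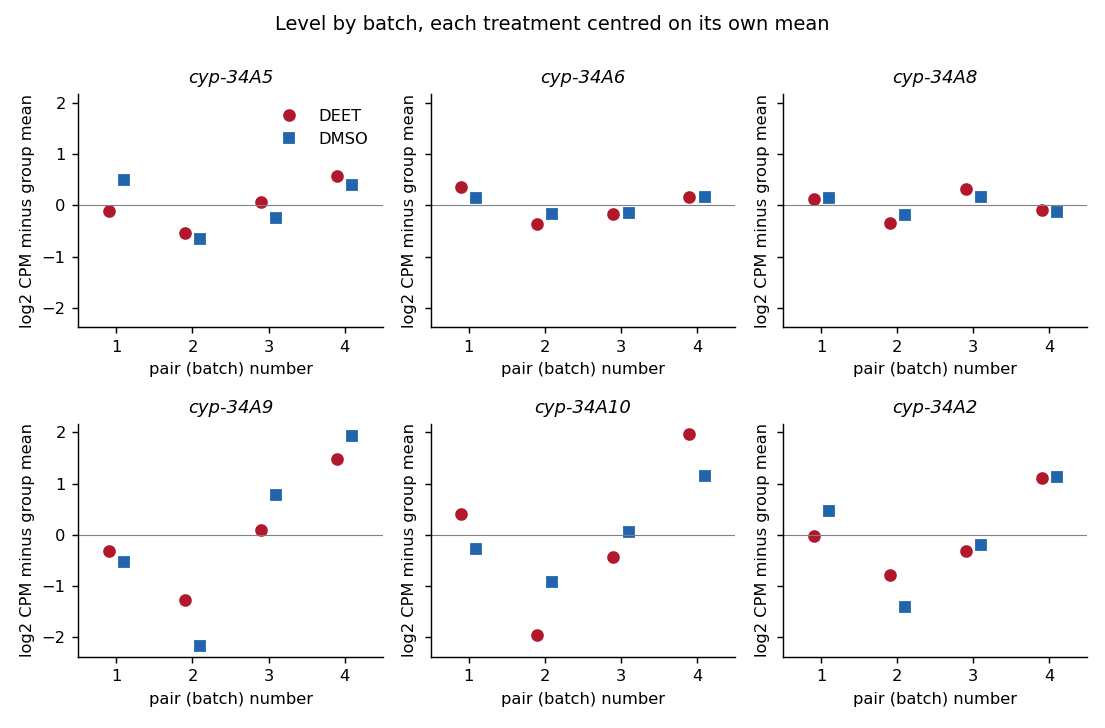
log2 CPM (prior count 2) of each gene minus the mean of its group, by pair (batch) number, with DEET as circles and DMSO as squares. In both groups pair 2 is the lowest and pair 4 the highest for cyp-34A9, cyp-34A10 and cyp-34A2.

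The batch difference was widest for 3 of the 6 genes. Averaged over DEET and DMSO, log2 CPM of cyp-34A9 spanned 3.43 between its highest and lowest batch, a ratio of 10.7, and that of cyp-34A10 spanned 2.99, a ratio of 7.96. cyp-34A2, far from the cluster, spanned 2.21, a ratio of 4.62. The spans of these 3 genes exceeded those of 99.4%, 98.9% and 97.4% of all genes tested, whose median span was 0.53. Counts were low for cyp-34A2, at 7 to 35 per DEET library and 3 to 31 per DMSO library. They were also low for cyp-34A10 in DMSO, at 1 to 12 per library. The part of counting error in these spans was not tested. cyp-34A5 spanned 1.09, while cyp-34A6 and cyp-34A8 spanned 0.53 and 0.51. Within DMSO alone, with no DEET present, cyp-34A9 ranged 18.3-fold in CPM from pair 2 to pair 4, against 1.28-fold between the highest and lowest DMSO library for cyp-34A8 beside it.

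All 6 genes had their lowest mean level in pair 2, where 32.0% of all genes tested did, and 4 of 6 had their highest in pair 4, where 46.0% did. For cyp-34A9 the order of the pairs was 4, 3, 1, 2 in DEET and the same in DMSO, and for cyp-34A2 it was 4, 1, 3, 2 in both groups. For cyp-34A8 it was 3, 1, 4, 2 in both. For cyp-34A10 it was 4, 1, 3, 2 in DEET and 4, 3, 1, 2 in DMSO, on 12 or fewer DMSO counts.

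Several other measures moved with the batches. The summed TPM of 6 germline markers was 1300.0 in DEET and 1090.0 in DMSO in pair 4, against 1900.0 to 2000.0 in DEET and 1950.0 to 2010.0 in DMSO in the other pairs. Sperm markers summed to 171 TPM in DEET and 178 in DMSO in pair 4, against 63.3 to 120.0 in DEET and 76.3 to 114.0 in DMSO in the other pairs, lowest in pair 2 in DEET and in pair 3 in DMSO. The 3 yolk genes had their lowest sum in pair 4, at 8710.0 TPM in DEET and 9750.0 in DMSO. The 8 intestine markers summed to 802, 877, 723 and 824 TPM in DEET pairs 1 to 4. In DMSO they summed to 774, 948, 655 and 888 TPM, and in both groups pair 2 was highest and pair 3 lowest. Body wall muscle markers summed to 496, 334, 339 and 475 TPM in DEET pairs 1 to 4, and to 529, 387, 334 and 565 in DMSO. The part of these differences, and of the ribosomal RNA share, in the batch differences of the cyp-34A genes was not tested.

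No tested gene around the chromosome V cluster was called between DEET and DMSO by edgeR, and the surroundings of cyp-34A2 were not examined. In the cluster and within 20 kb on either side lie 28 further annotated genes, cyp-34A7 included, of which 10 were tested. edgeR with the block called 0 of the 10 (1 at an unadjusted p under 0.05, 1 by DESeq2), and the smallest adjusted p was 0.50. Both the unadjusted and the DESeq2 count are cyp-35A5, a P450 gene 17.1 kb away, at 2.95 ± 1.8 TPM in DEET and 0.699 ± 0.194 TPM in DMSO (SD, n = 4). Its mean log2 ratio was 1.87 ± 1.02 (SD, n = 4 pairs), near that of cyp-34A9. It was higher in DEET in 4 of 4 pairs, where 4.58% of all genes tested were. Its neighbours cyp-35B1 and cyp-35B2 had mean log2 ratios of -0.06 ± 0.17 and -0.23 ± 0.63 (SD, n = 4 pairs). On the cyp-34A10 side lie nlp genes, among them nlp-29, which encodes an antimicrobial peptide of the epidermis and had 113 ± 12.6 TPM in DEET and 117 ± 17.0 TPM in DMSO (SD, n = 4). The nearest tested of them, nlp-34, 5.83 kb away, had a mean log2 ratio of 0.13 ± 0.38 (SD, n = 4 pairs).

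**Figure D5:**
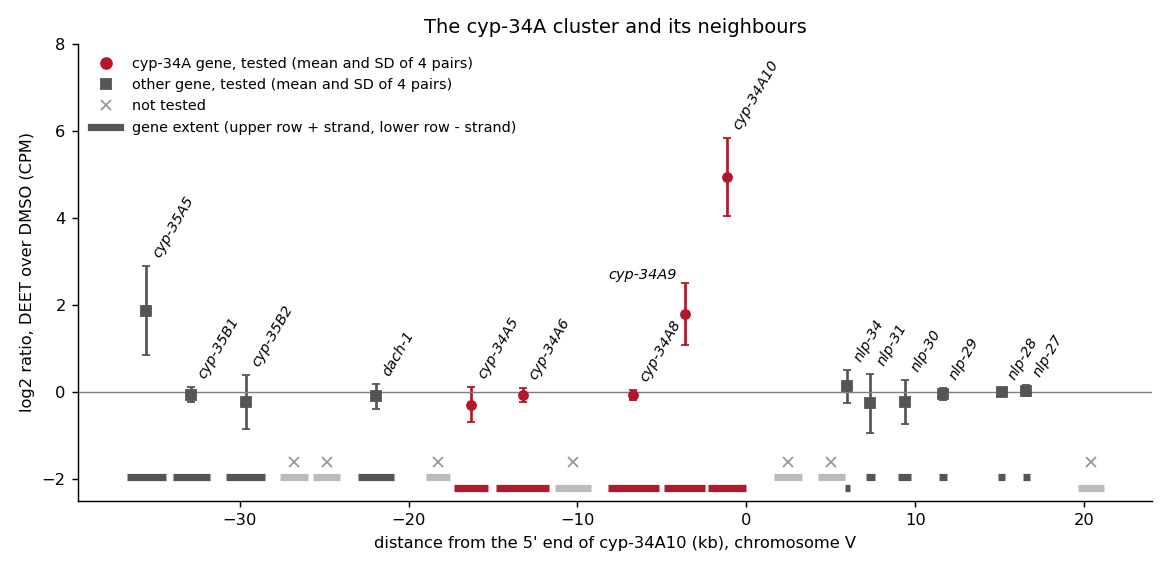
Mean log2 ratio of CPM, DEET over DMSO, with the SD of 4 pairs, for the tested genes within 20 kb of the cluster, against the distance in kb from the 5' end of cyp-34A10. Bars at the foot show gene extents and crosses mark drawn genes that were not tested. Of the 28 further annotated genes in the window, only the 17 that are protein coding or pseudogenes are drawn. Within the cluster the ratio is near 0 for cyp-34A5, cyp-34A6 and cyp-34A8, and 1.80 and 4.94 for cyp-34A9 and cyp-34A10 at its end. Outside the cluster, cyp-35A5 lies at 1.87.

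Among P450 genes outside the cyp-34A family, 57 of 71 were tested, and 2 were called higher in DEET, 0 lower and 55 not called (cyp-14A3 and cyp-14A2 being the 2), where 0.0839% of all genes tested were called higher. The number called was 0 without the block, 1 on log2(TPM + 1), 1 without pair 1, 1 without pair 2 and 4 without pair 4. cyp-14A3 had 6.61 ± 4.98 TPM in DEET and 0.0642 ± 0.0347 TPM in DMSO (SD, n = 4). Its 2 to 6 counts in each DMSO library lie under the filter's minimum count of 10, so like cyp-34A10 it was tested through its DEET libraries and had to differ. cyp-14A2 had 9.02 ± 4.61 TPM in DEET and 1.42 ± 0.311 TPM in DMSO (SD, n = 4; edgeR log2 fold change 2.61, adjusted p 0.0096). The median log2 fold change of the 57 genes was -0.03, against 0.0049 over all genes tested. In the cyp-35 family edgeR called 0 of 6 tested genes (2 at an unadjusted p under 0.05, 1 by DESeq2). In the cyp-33, cyp-13 and cyp-25 families it called 0 of 13, 0 of 13 and 0 of 4, with 1 gene at an unadjusted p under 0.05 in each and 0 by DESeq2. The batch test passed 46 of the 57 genes (80.7%), where 64.9% of all genes tested passed.

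The partners and possible regulators of P450 enzymes were not called, like 15483 of the 15496 genes tested, so 0 called does not set them apart. Of 8 genes for electron donors and haem supply, edgeR called 0 (1 at an unadjusted p under 0.05, 0 by DESeq2). emb-8, the P450 reductase, had 127 ± 5.54 TPM in DEET and 124 ± 9.1 TPM in DMSO, and cytb-5.1, a cytochrome b5, had 214 ± 29.3 TPM in DEET and 189 ± 19.1 TPM in DMSO (SD, n = 4; edgeR adjusted p 1.0 and 0.38). Of 12 transcription regulators with roles in responses to foreign compounds, lipids or oxygen, 0 were called (0 at an unadjusted p under 0.05, 0 by DESeq2), with log2 fold changes from -0.07 to 0.22. They include mdt-15, a Mediator subunit, at 56.6 ± 3.05 TPM in DEET and 56.9 ± 5.79 TPM in DMSO, and skn-1, the worm Nrf factor, at 109 ± 16 TPM in DEET and 109 ± 19.8 TPM in DMSO. The gene with the highest log2 fold change of the 12 but the lowest TPM, ahr-1, the aryl hydrocarbon receptor, had 0.518 ± 0.173 TPM in DEET and 0.447 ± 0.207 TPM in DMSO (SD, n = 4). Of 10 insulin pathway genes 0 were called (0 at an unadjusted p under 0.05, 0 by DESeq2), and daf-16, the FOXO factor of that pathway, had 100 ± 6.48 TPM in DEET and 98.3 ± 7.8 TPM in DMSO (SD, n = 4). Transcript levels do not report the activity of these proteins.

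The genes most like each of the 6 were taken as those with the smallest root mean square difference of log2 CPM over the 8 libraries, each profile centred on its own mean. For cyp-34A10 these were cyp-14A3, another P450 gene, on chromosome X, with a difference of 0.84, and R09E12.9 on chromosome V, with 0.85. cyp-14A3 had 135 to 763 counts per DEET library, against 2 to 6 per DMSO library, and R09E12.9 had 715 to 6142, against 15 to 295. For cyp-34A9 they were ugt-33, a UDP-glucuronosyltransferase gene on chromosome V, with 0.72, and R160.4 on chromosome X, with 0.77. ugt-33 had 64 to 788 counts per DEET library and 25 to 337 per DMSO library. R160.4 had few counts, at 7 to 28 per DEET library and 1 to 22 per DMSO library. edgeR with the block called cyp-14A3 and ugt-33 higher in DEET, and did not call R09E12.9 or R160.4. The profiles of cyp-34A9 and cyp-34A10 lay farther apart, at 1.73. The nearest gene to cyp-34A8 was F15E6.4 with 0.04, to cyp-34A6 best-17 with 0.07, to cyp-34A5 T07F12.4 with 0.14, and to cyp-34A2 T25B9.5 with 0.17. Among the 6 genes the closest profiles were those of cyp-34A6 and cyp-34A8, at 0.26. These likenesses include the DEET and batch differences given above, and rest on libraries that share pairs.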

How the data were processed

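Polyadenylated RNA of whole worms was read as paired 38-base reads, per the labels' protocols. The submitters' processing notes name Salmon, DESeq2 and build WBcel235. Neither versions nor strand settings were given in the sources used here. Whole-number counts per gene, not normalized, and TPM values, scaled by the authors within each library, were deposited. Sequence names were matched to the Ensembl annotation of WBcel235, 46182 of 46244 to 1 gene each.

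The counts went into edgeR 4.0.16 (R 4.3.3), with its quasi-likelihood test, TMM scaling, the expression filter by group (minimum count 10), robust dispersions, pair and treatment as terms, and Benjamini-Hochberg adjustment over 15496 genes. DESeq2 1.42.0 and limma 3.58.1 were alternatives. The edgeR fit was tried on simulated counts with the same dispersion for every gene and smaller changes than that fitted for cyp-34A10. That trial does not show how the fit performs on genes like cyp-34A10. The labels give the pair number as a batch, and the deviations of same-numbered libraries from their group means correlated across genes at 0.429, 0.706, 0.558 and 0.896 in pairs 1 to 4. Every library differed from the others of its group by more than sampling noise, with a chi-square per gene of at least 14.3. Intervals of count ratios are exact binomial intervals.

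The 6 genes, the gene lists, the markers and the naming rule (members, other cyp-34A genes, called list genes, any gene of a list of at most 12, and the 2 closest profiles to each member) were chosen with earlier results of these data known. The 20 kb window and the summing of cyp-34A9 with cyp-34A10 were chosen after the values were seen. Sequences were not analysed here.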

Additional observations from a re-analysis of the deposited data

How the results depend on the processing

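The higher level of cyp-34A10 and of cyp-34A9 in DEET kept its direction in every fit run. Without the replicate block the log2 fold change of cyp-34A10 was 5.79 and its call was lost, so 0 of the 6 genes and 0 of the other P450 genes were called. On log2(TPM + 1), which shrinks the change of low genes, it was 2.01 and not called, while cyp-34A9 was called at 1.34 and 1 other P450 gene was called. DESeq2 with the block called cyp-34A9 at 1.80, for 2 of the 6 genes, where it called 0.0752% of all genes higher. The cause of these changes was not tested. With single pairs left out, the log2 fold change ran from 5.62 to 6.03 for cyp-34A10, from 1.46 to 1.81 for cyp-34A9 (called without pair 2), from -0.41 to -0.07 for cyp-34A5, from -0.0041 (without pair 2) to 0.26 for cyp-34A2, from -0.11 to 0.02 (without pair 2) for cyp-34A6 and from -0.10 to -0.01 for cyp-34A8. The number called ran from 1 to 2 of the 6 genes and from 1 (without pair 1 or pair 2) to 4 (without pair 4) other P450 genes, and the batch test passed 2 to 6 of the 6. The batch test passed 2 without pair 4, 3 by DESeq2 and 3 on log2(TPM + 1), where 19.5%, 47.7% and 62.0% of all genes passed. The summed log2 ratio was 0.34, 1.36 without cyp-34A8, and 0.20 to 0.45 with single pairs left out. Over all genes, edgeR called 13 higher and 0 lower with the block, 0 and 0 without it (45 at an unadjusted p under 0.05), 22 and 8 with no expression filter, and limma called 7 and 0 on log2(TPM + 1). DESeq2 with the block called 18 higher and 2 lower. With single pairs left out, edgeR called 11 to 12 genes higher and 0 to 4 lower. Depth limits cyp-34A10 in DMSO, at 1 to 12 counts per library, and cyp-34A2 and cyp-34A5 in both groups.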
